A study of Mus musculus with 5 samples.

Results

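The genes described here encode 8 transcription factors that set and keep hepatocyte identity: Hnf4a, Foxa1, Foxa2, Foxa3, Cebpa, Cebpb, Onecut1 and Prox1. They were chosen by name, as probe sets that the platform annotation assigns to exactly 1 of these symbols, and make up 8 of the 19938 genes so named on the array. Each had a single probe set, so no choice among probe sets was needed. Total RNA was measured in the liver of 5 male wild-type C57BL/6N mice aged 5 to 6 months, 1 array per mouse. All 5 mice had received streptozotocin, a toxin of pancreatic beta cells used to induce type 1 diabetes, at 65 mg/kg on 5 successive days when 10 to 16 weeks old. From 2 weeks later they ate bezafibrate, a lipid-lowering fibrate that activates PPAR receptors, in the chow for 8 weeks. The labels name chow with 0.25% or 0.5% bezafibrate without saying which a mouse ate, and give the age at injection only as that range, so neither can be separated from the differences among animals described below. Every liver carried both treatments. Mice on other treatments were not analysed here, so the values describe levels and the spread between mice, not an effect of either compound.

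Hepatocytes owe their gene programme to a small network of factors that bind together at liver enhancers and at each other's promoters. HNF4A is a nuclear receptor that activates genes of lipoproteins, coagulation and bile acids. The FOXA proteins are forkhead pioneer factors that open chromatin, the C/EBP proteins are leucine zipper factors of metabolic and acute-phase genes, ONECUT1 (HNF6) is a cut homeodomain factor upstream of FOXA2 and HNF4A, and PROX1 is a prospero homeodomain factor that acts with HNF4A and LRH-1, mostly as a corepressor.

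The promoter windows below are shown because Onecut1 was the gene of the group with the widest spread between livers, and because Hnf4a, Foxa2 and Foxa1 carry matches to the motifs of ONECUT or FOXA factors. They are the 250 bases before a gene start in RefSeq, build GRCm38.p6, written 5′ to 3′ on the strand of the gene, and all 8 genes had at least 1 window there, 12 in all. Capitals mark the motif match.
Onecut1, chr9:74861671-74861920, plus strand, E-box in capitals: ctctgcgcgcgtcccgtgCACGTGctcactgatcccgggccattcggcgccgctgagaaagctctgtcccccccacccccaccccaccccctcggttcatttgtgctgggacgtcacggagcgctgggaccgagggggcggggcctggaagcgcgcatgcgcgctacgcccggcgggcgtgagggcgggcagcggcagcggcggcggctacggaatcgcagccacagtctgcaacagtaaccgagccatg
Hnf4a, upstream start, chr2:163506607-163506856, plus strand, ONECUT motif in capitals: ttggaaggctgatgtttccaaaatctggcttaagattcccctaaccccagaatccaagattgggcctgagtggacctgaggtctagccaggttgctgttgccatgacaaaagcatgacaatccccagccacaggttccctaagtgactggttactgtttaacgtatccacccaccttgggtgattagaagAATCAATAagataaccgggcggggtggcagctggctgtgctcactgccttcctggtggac
Foxa2, chr2:148046970-148047219, minus strand, ONECUT motif in capitals: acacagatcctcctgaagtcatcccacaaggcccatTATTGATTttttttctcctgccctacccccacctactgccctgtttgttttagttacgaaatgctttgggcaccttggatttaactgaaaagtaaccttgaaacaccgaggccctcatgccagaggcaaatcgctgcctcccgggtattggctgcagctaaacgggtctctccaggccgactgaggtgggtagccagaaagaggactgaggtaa
Foxa1, chr12:57546112-57546361, minus strand, FOXA motif in capitals: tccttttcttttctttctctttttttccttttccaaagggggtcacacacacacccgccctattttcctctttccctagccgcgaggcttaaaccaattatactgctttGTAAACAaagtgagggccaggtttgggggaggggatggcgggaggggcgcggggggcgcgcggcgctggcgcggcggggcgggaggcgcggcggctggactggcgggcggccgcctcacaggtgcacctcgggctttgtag

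Both strands were searched for CAAAGTCCA (HNF4), TGTTTAC and TGTTTGC (FOXA), TTGCGCAA (C/EBP), TATTGATT (ONECUT) and CACGTG (E-box), motifs picked after the windows had been read. The ONECUT letters lay in 1 of the 2 Hnf4a windows, 60 bases before the upstream start, and in 1 of the 3 Foxa2 windows, 214 bases before the start. These letters occur in 0.718% of the 32851 RefSeq windows of the same length. The other Hnf4a start lies 40298 bases downstream, and its window held none of the motifs. Which Hnf4a or Foxa2 start these livers used was not measured. The FOXA letters TGTTTAC lay 141 bases before the Foxa1 start (3.17% of all windows) and TGTTTGC 120 bases before a Prox1 start (4.3% of all windows). The Onecut1 window held the E-box, which is bound by clock and MYC factors, 232 bases before the start (6.02% of all windows), and none of the other 5 motifs. HNF4 and C/EBP letters were in 0 of the 12 windows (0.384% and 0.164% of all windows). A match describes letters and is not evidence of binding, and the motifs do not overlap one another in these windows.

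All 8 genes were expressed in every liver, in that each exceeded the brightness floor on all 5 arrays, as did 60% of all 19938 genes. The floor is the 95th percentile, on each array, of the signal of olfactory and vomeronasal receptor genes, and lay between 5.59 and 6.07 on the log2 scale. A difference of 1 on this scale is a 2-fold difference in signal. The arrays were alike, with Pearson's r across probe sets, which are not independent, of 0.971 to 0.993 for pairs of arrays. The array of mouse 4 stood somewhat apart: 76.0% of the receptor probe sets were brightest there, and 36.5% of the 13336 genes tested were lowest there. The labelled tissue matched its markers, as all 10 measured hepatocyte markers exceeded the floor in all livers and Alb (albumin) had 13.64 ± 0.05 (SD, n = 5). Since each probe set binds with its own affinity, the genes are not ranked by level.

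Onecut1 differed between the livers by 3.70-fold, and none of the other 7 genes spanned more than 1.70-fold. The variance of Onecut1 between mice exceeded that expected for a probe set of its level (F test on a limma fit over all probe sets, Benjamini-Hochberg adjusted p = 0.0296), and the variance of the other 7 genes did not pass. The SD of those 7 was 0.61 to 2.57 times the expected one, and the smallest ratio that passed in any gene was 6.15, so a 5-mouse test of this kind leaves moderate differences in spread uncalled. That is 1 of 8 genes, beside 38 of the 13336 tested genes, or 0.285% (52 of 14586 probe sets, 0.357%). At an unadjusted p under 0.05 there were 3 of the 8 (Onecut1, Foxa3 and Cebpa), beside 6.38% of all tested genes. The median SD of the 8 genes was 0.22, and that of all tested genes 0.12.

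**Figure D1:**
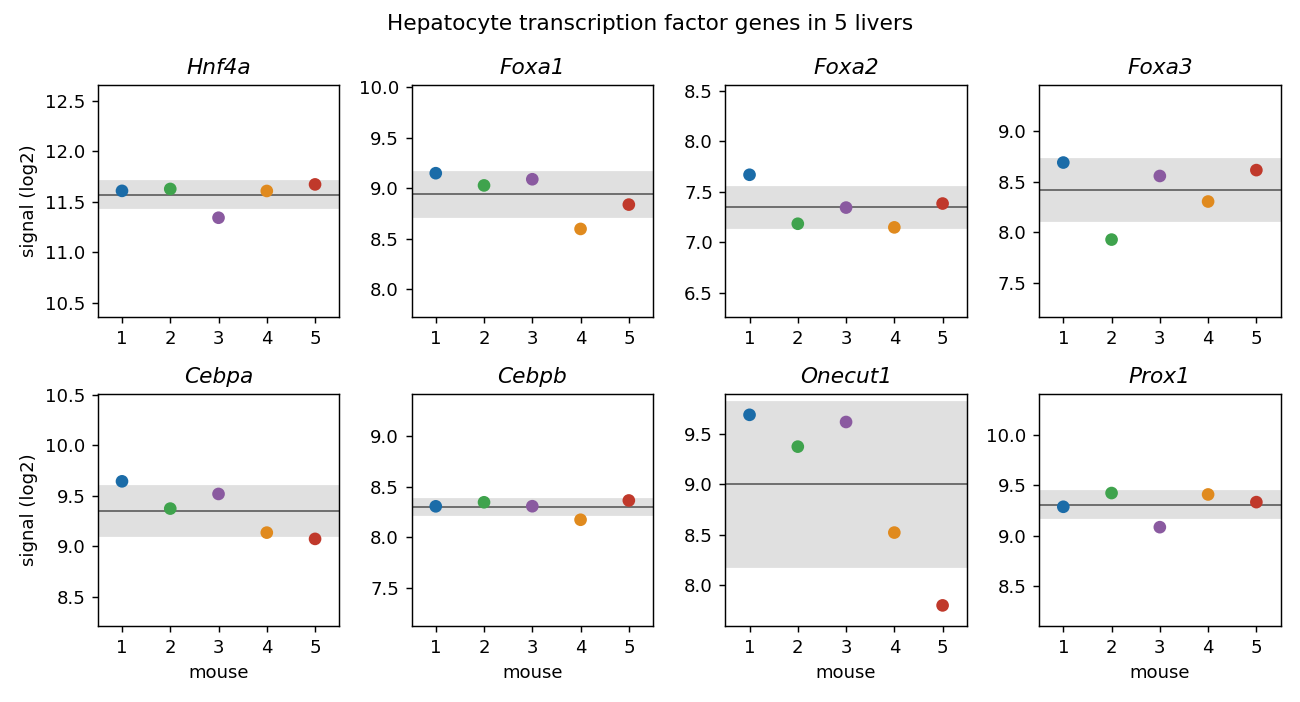
Signal (log2) of each of the 8 genes in mice 1 to 5, 1 point per liver; the line is the mean, the grey band the mean ± 1 SD (n = 5), and every panel covers the same height in log2 units. Onecut1 runs from 9.69 in mouse 1 to 7.80 in mouse 5, while Cebpb stays between 8.17 and 8.36.

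**Figure D2:**
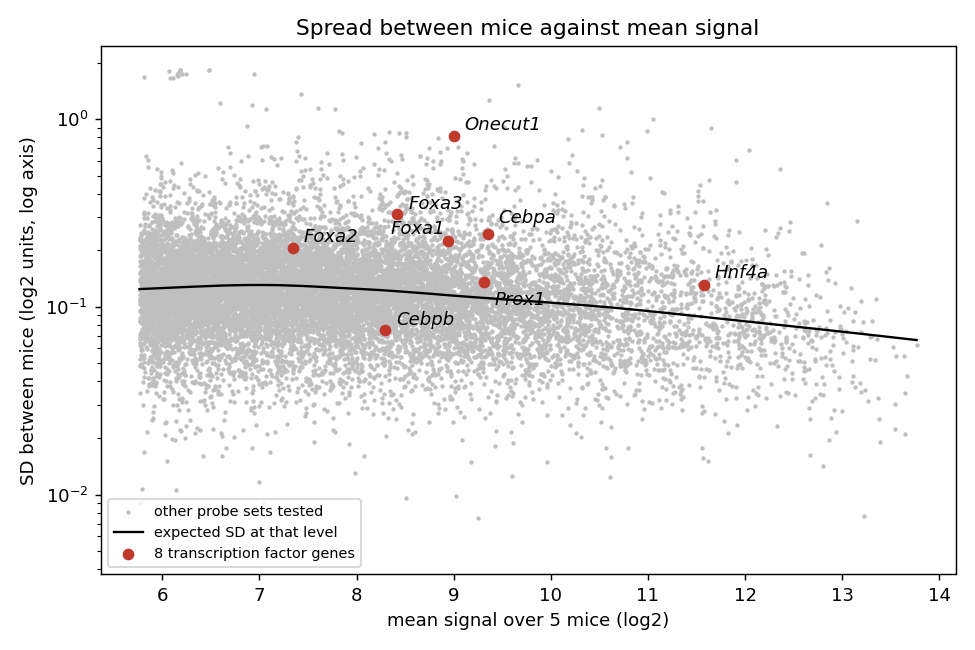
SD between the 5 mice (log2 units, log axis) against mean signal (log2) for all probe sets tested (grey), with the expected SD at each level (black line) and the 8 genes in red. Onecut1 lies at an SD of 0.82 where 0.11 is expected, Cebpb lies below the line at 0.07, and the other 6 lie above it.

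Onecut1 was 9.69 in mouse 1, 9.37 in mouse 2, 9.62 in mouse 3, 8.52 in mouse 4 and 7.80 in mouse 5, which gives a mean of 9.0 ± 0.82 (SD, n = 5). Mice 1 to 3 were within 0.32 of each other, mouse 4 was 1.80-fold below the lowest of them, and mouse 5 was a further 1.65-fold lower. Even in mouse 5 the signal was 2.08 above the floor of that array. The SD was 7.11 times the expected one, and 20 of the 13336 tested genes had a larger ratio of variance to expected variance. The spread did not rest on mouse 5 alone: without mouse 5 the SD was 0.54 (adjusted p = 0.04996) and without mouse 4 it was 0.89 (adjusted p = 0.135, when 0 probe sets of any gene were called). The adjusted p was also above 0.05 without mouse 2 (0.0553, SD 0.91) or mouse 3 (0.0538, SD 0.85), and 0.0230 without mouse 1. Over the 13 alternative settings, these included, Onecut1 passed in 5, and its adjusted p reached 0.246 when probe sets with no single gene symbol were included in the fit. The ONECUT genes Onecut2 and Onecut3 had small SDs, at 9.52 ± 0.07 for Onecut2 and 7.10 ± 0.03 for Onecut3 (SD, n = 5). Neither variance passed the test (adjusted p = 0.992 and 1), and other genes of the cut family were not examined.

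The 3 genes whose centred values lay nearest to Onecut1 over the 5 mice, among 223 genes with an SD of at least 50% of its own, were Aacs, Pigr and Thrsp. Aacs, which encodes acetoacetyl-CoA synthetase, an enzyme that turns ketone bodies into lipid precursors, was 9.84, 9.42, 9.52, 8.66 and 8.24 in mice 1 to 5. Its root mean square difference from Onecut1 was 0.18, against 0.20 for Pigr, the receptor that carries immunoglobulin A into bile, and 0.25 for Thrsp, a regulator of lipogenesis. As with Onecut1, all 3 were highest in mouse 1 and lowest in mouse 5, which follows from choosing them by nearness to it. Mice 4 and 5 lay below the other mice in 23.6% of all tested genes, and above them in 4.93%. Likeness over 5 animals is a description and carries no test.

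Genes that ONECUT1 is known to act on were described beside it. Of 11 listed, 8 were measured, 3 of them transcription factors of the group described here (Foxa2, Hnf4a and Prox1). Onecut1 deviated from its mean over mice by 0.69, 0.37, 0.62, -0.48 and -1.20 in mice 1 to 5. The median deviation of the 8 genes, which went in both directions, was 0.07, -0.02, 0.04, 0.03 and 0.03, and the mean in mouse 2 was -0.15, where Cyp7a1 alone was at -1.25. Transthyretin (Ttr), a classical target, was between 13.20 and 13.38. That is near the largest signal of the arrays (14.00 to 14.12), and the SD expected at its level was only 0.07. The glucose-6-phosphatase gene G6pc was 12.32 ± 0.24 (SD, n = 5), lowest in mouse 1. Slc27a5, of bile acid conjugation, was lowest in mouse 5 (11.28, against 11.66 to 11.75 in the others), the same liver in which Onecut1 was lowest. Cyp7a1, the rate-limiting enzyme of bile acid synthesis, was the 1 gene of the 8 whose variance passed (adjusted p = 0.0287), through a low value in mouse 2 (9.46, against 10.94 to 11.20 in the others), where Onecut1 was high. That 1 of 8 stood beside 0.285% of all tested genes. At an unadjusted p under 0.05 in limma there were 4 of the 8, beside 6.38% of all tested genes. The median SD of the 8 was 0.20, and that of all tested genes 0.12. Mice 4 and 5 lay below the others in 2 of the 8, beside 23.6% of all tested genes.

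**Figure D3:**
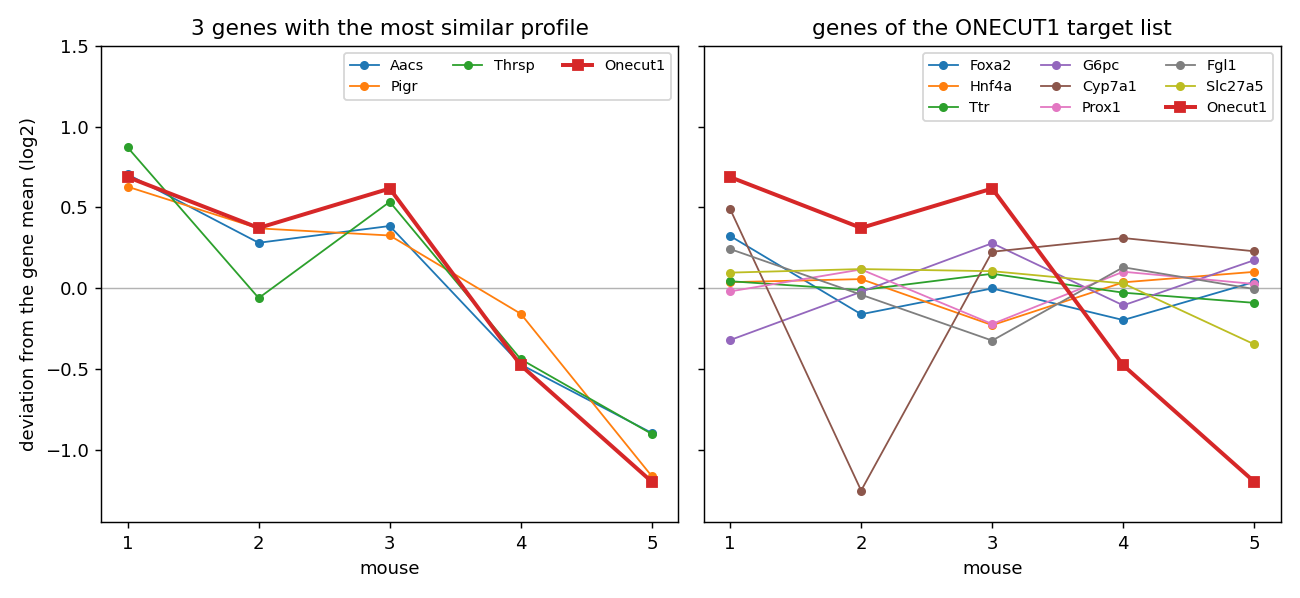
Deviation from the gene's mean (log2) in mice 1 to 5 for Onecut1 (thick red) with the 3 nearest genes (left) and with the 8 measured genes of the ONECUT1 target list (right); lines join points of 1 gene and the order of mice has no meaning. Aacs, Pigr and Thrsp lie between -1.17 and -0.90 in mouse 5, which follows from choosing them as nearest to Onecut1. The target genes were not chosen by profile and lie between -0.35 and 0.23 there, so the panels are not a like-for-like contrast.

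The FOXA genes each took their highest value in mouse 1 and differed in which liver was lowest. Foxa1 was 9.15, 9.03, 9.09, 8.60 and 8.84 in mice 1 to 5 (mean 8.94 ± 0.22, SD, n = 5), lower in mice 4 and 5 than in any other mouse. Foxa2 was 7.67, 7.19, 7.35, 7.15 and 7.39 (mean 7.35 ± 0.21), and the value of mouse 1 stood above the rest. Foxa3, the FOXA gene most abundant in adult liver by common knowledge, was 8.69, 7.93, 8.56, 8.31 and 8.62 (mean 8.42 ± 0.31), lowest in mouse 2. Foxa3 had the next widest spread after Onecut1 of the group, with an unadjusted p of 0.0204 that did not pass over all genes (adjusted p = 0.554), and its SD was 0.17 without mouse 2. Foxa1 (adjusted p = 0.874, SD 0.13 without mouse 4) and Foxa2 (adjusted p = 0.987, SD 0.12 without mouse 1) did not pass either.

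The genes nearest to Foxa3 in profile, among 3384 candidates, were H2-Aa (root mean square difference 0.07), Lingo2 (0.08) and C1qb (0.08). H2-Aa encodes a class II antigen-presenting chain and C1qb a complement chain made by macrophages, and Lingo2 was not above the floor in every liver. Beside this, the 12 Kupffer cell and macrophage markers had mean deviations of 0.37, -0.18, -0.05, -0.23 and 0.09 in mice 1 to 5, with 11 of the 12 highest in mouse 1, and a mean signal of 8.68 to 9.28 over the arrays. Of them, 11 exceeded the floor in all mice. Markers of some other tissues and cells were also high in mouse 1. The mean deviation there was 0.58 for skeletal muscle (4 of 4 tested highest in mouse 1, and 4 of 8 above the floor in all livers). It was 0.32 for erythroid cells (2 of 3), 0.15 for stellate cells (7 of 10), 0.13 for lymphatic endothelium, 0.07 for adipocytes and 0.06 for sinusoidal endothelium. The remaining marker lists were not high there: hepatocyte 0.003, lymphocyte -0.002, neutrophil -0.04, bile duct -0.08 and pancreas -0.13. Foxa1, Foxa2, Foxa3, Cebpa and Onecut1 were all highest in mouse 1 (5 of 8 genes, beside 23.9% of tested genes), and the part of any of these cells in that was not tested. In bulk liver, fewer cells of a type and less RNA per cell cannot be told apart.

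Cebpa and Cebpb, which encode paired leucine zipper factors with overlapping binding sites, spread differently. Cebpa, the factor that predominates in the resting liver, was 9.65, 9.38, 9.52, 9.14 and 9.08 in mice 1 to 5 (mean 9.35 ± 0.24, SD, n = 5), with mice 4 and 5 below the others. The SD was 0.24 where 0.11 is expected, and the variance did not pass (unadjusted p = 0.0421, adjusted p = 0.754). Cebpb, the form induced in injury and fasting, was 8.30, 8.34, 8.31, 8.17 and 8.36 (mean 8.30 ± 0.07), and its SD exceeded that of 18.9% of tested genes. The difference of Cebpa minus Cebpb, each centred on its mean, ran from 0.29 in mouse 1 to -0.34 in mouse 5.

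Cebpa lay close to Foxa1 in profile: the difference of their centred values had an SD of 0.12, and both were lower in mice 4 and 5 than in mice 1 to 3. Onecut1, Foxa1 and Cebpa were the 3 of 8 genes with that order, beside 23.6% of all tested genes, and the order also held with quantile-normalized arrays and with arrays centred on their medians. The 3 genes nearest to Cebpa, among 5889 candidates, were S1pr1 (root mean square difference 0.04), a receptor for sphingosine 1-phosphate, Bmp5 (0.04), a secreted growth factor, and Rnf103 (0.04), a ubiquitin ligase. Cebpa minus Onecut1 still had an SD of 0.59, and Onecut1 was the lower of the pair, each relative to its own mean, in mice 4 and 5.

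Hnf4a and Prox1 were the genes of the group with spans nearest to the median of all tested genes, 1.22-fold. Hnf4a was 11.61, 11.63, 11.34, 11.61 and 11.67 in mice 1 to 5 (mean 11.57 ± 0.13, SD, n = 5), a 1.26-fold span set by the low value of mouse 3, without which the SD was 0.03. Prox1 was 9.29, 9.42, 9.09, 9.41 and 9.33 (mean 9.31 ± 0.14), a 1.26-fold span that was also lowest in mouse 3, with an SD of 0.06 without it. The centred values of Hnf4a and Prox1 differed with an SD of 0.07, the smallest among the 28 pairs of the 8 genes. Neither variance passed (adjusted p = 0.992 for both). The antisense transcript gene Hnf4aos was 7.92 ± 0.17 and lowest in mouse 3 too, at 7.70.

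Target genes of the factors are given here by list, beside the 0.285% of all tested genes that passed the variance test and the 6.38% with an unadjusted p under 0.05. The lists share genes, so their counts are not independent: Ttr, Pck1 and Apob are in the HNF4A, FOXA and C/EBP lists. Cyp7a1 is the same call in the HNF4A, ONECUT1 and PROX1 lists. Of 31 measured HNF4A target genes, all above the floor in all livers, 2 had a variance that passed (Apoa4, an apolipoprotein of intestine and liver, adjusted p = 0.0219, and Cyp7a1), 15 had an unadjusted p under 0.05, and the median SD was 0.19. Of these 31 genes, 19 were lowest in mouse 5, beside 21.6% of all tested genes, and their mean deviation was 0.11, -0.04, 0.07, -0.03 and -0.11 in mice 1 to 5. Hnf4a itself was highest in mouse 5. Of 15 tested FOXA target genes 0 passed (5 at an unadjusted p under 0.05 in limma, median SD 0.11), and the widest were Igfbp1 (SD 0.44), a binding protein of insulin-like growth factors, and Afp (SD 0.34), the fetal alpha-fetoprotein, which did not exceed the floor in every liver.

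The metabolic targets of C/EBP factors gave 0 calls among 18 tested (6 at an unadjusted p under 0.05 in limma), with a median SD of 0.11. Cyp7b1 (SD 0.54), an oxysterol hydroxylase, and Hsd11b1 (SD 0.42), which regenerates active glucocorticoid, were widest. The acute-phase genes, listed as induced by C/EBP-beta and STAT3, gave 6 calls among 24 tested (Saa2, Orm2, Orm3, Lcn2, Mt1 and Mt2), beside 0.285% of all tested genes. Of the 24, 13 had an unadjusted p under 0.05 in limma, and the median SD was 0.22. The 6 did not share a profile: Saa2 and Lcn2 were highest in mouse 1, Orm2 in mouse 5, Orm3 in mouse 2, and Mt1 and Mt2 in mouse 4. Orm3 (orosomucoid 3) was 8.52, 9.20, 7.17, 8.62 and 9.05 in mice 1 to 5, a 4.09-fold span (adjusted p = 0.0339). Cebpb spanned 1.14-fold over the same livers, and a link between Cebpb and these genes was not tested. The list for repression with PROX1 and LRH-1 had 6 measured genes, among them Hdac3 and LRH-1 itself (Nr5a2, 9.35 ± 0.14, SD, n = 5). Of these 6, Cyp7a1 was the 1 that passed, beside 0.285% of all tested genes. At an unadjusted p under 0.05 in limma there were 4 of the 6, beside 6.38% of all tested genes.

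Among neighbouring regulators, 0 of 23 tested liver-enriched factors and cofactors passed (2 at an unadjusted p under 0.05 in limma), with a median SD of 0.12. Dbp, a clock output factor, had an SD of 0.32 (adjusted p = 0.451), and the stress factor Atf5 of 0.25 (adjusted p = 0.778). The 3 tested relatives of the C/EBP genes gave 0 calls (0 at an unadjusted p under 0.05 in limma), with Ddit3 (SD 0.17) and Cebpg (0.11) widest. Immediate early genes, which respond to handling and stress, gave 0 calls among 14, but 7 had an unadjusted p under 0.05 in limma, beside 6.38% of all tested genes, and their median SD was 0.24. Myc had the widest SD of them (0.61, adjusted p = 0.0987), followed by Gadd45b (0.55), and 8 of the 14 were highest in mouse 5, beside 19.2% of all tested genes. Their mean deviation was 0.24 in mouse 5 and -0.17 in mouse 4, the 2 livers with low Onecut1.

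The list of genes of fetal liver and progenitor cells had its highest mean in mouse 5, with mean deviations of -0.13, 0.03, -0.19, -0.05 and 0.33 in mice 1 to 5. The median deviation in mouse 5 was 0.16. The mean there was higher because Cd24a (1.36), Igf2 (0.96) and Afp (0.58) were far above the rest. Of the 12 measured genes, 7 exceeded the floor in all livers. Of 10 tested, Cd24a, a surface glycoprotein of progenitor and immune cells, alone passed (adjusted p = 0.0322), beside 0.285% of all tested genes. Cd24a reached 10.19 in mouse 5, and the remaining livers lay between 8.21 and 8.73. Of the 10, 5 had an unadjusted p under 0.05 in limma, beside 6.38% of all tested genes. The median SD of the 10 was 0.26, and that of all tested genes 0.12. ONECUT1 and FOXA factors are also made by bile duct cells, and PROX1 by lymphatic endothelium. The bile duct markers share Sox9, Krt7, Krt19 and Epcam with the fetal liver and progenitor list, so the lists are not separate measures. The bile duct markers had mean deviations of -0.08, 0.14, -0.11, -0.11 and 0.16 in mice 1 to 5 (7 tested, 6 of 8 above the floor in all mice), with Anxa13 (SD 0.30) and Epcam (SD 0.29) widest. Of their defining keratins, Krt7 was between 6.45 and 6.60, and Krt19 did not exceed the floor in every liver. Lymphatic endothelial markers lay between -0.08 and 0.13 (5 tested), and hepatocyte markers between -0.04 and 0.08 (10 tested, median SD 0.07). The hepatocyte markers had a mean signal of 12.81 to 12.93 over the arrays, a level at which a small SD is expected. The part of any of these cells in the values of the 8 genes was not tested.

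**Figure D4:**
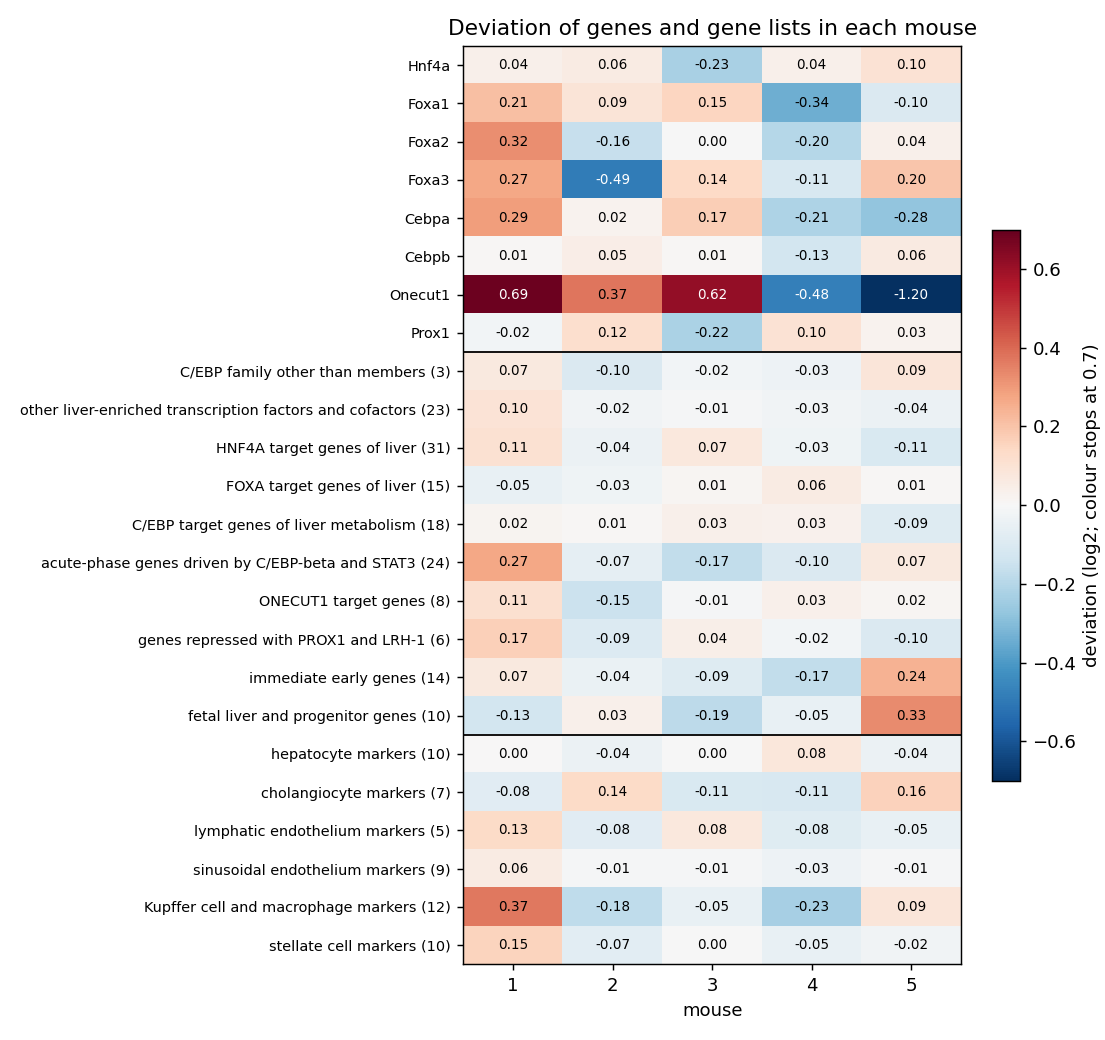
Deviation from the mean over mice (log2) in each mouse for the 8 genes (top), and the mean deviation of gene lists (middle) and of marker lists (bottom), with the number of tested genes in parentheses; red is above and blue below the mean. Onecut1 shows 0.69 to -1.20, hepatocyte markers -0.04 to 0.08, and fetal liver genes 0.33 in mouse 5.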

How the data were processed

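Per the submitters' processing notes, the authors used RMA and Affymetrix Expression Console 1.2, with order and settings not given in the sources used here, and deposited 1 log2 value per probe set and array (35556 probe sets, 5 arrays). RMA compresses differences near background. Of the probe sets, 21789 carry exactly 1 gene symbol in the platform annotation, and a gene is represented by its probe set with the highest mean.

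A limma 3.58.1 intercept-only fit (R 4.3.3, statmod 1.5.0) covered the 14586 such probe sets with a mean above 5.77, the 95th percentile of the means of 1210 receptor probe sets. A 1-sided F test asked whether each variance (4 degrees of freedom) was larger than limma's robust trend on level predicts (6.21 prior degrees of freedom), with Benjamini-Hochberg adjustment over all probe sets at 0.05. The procedure was tested on simulated data. With 1 group, only the spread between mice can be tested; it includes technical spread, and the number of arrays limits the precision.

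The 8 genes and the lists were chosen with earlier results of these data known, and the lists come from general knowledge. Named from a list were the genes that passed, otherwise up to 2 with the largest SD, and for the 3 widest of the 8 genes the 3 nearest profiles, leaving out predicted genes; other genes were picked after their values were seen. Python 3.11.15 was used for list summaries. Sequences are RefSeq's.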

Additional observations from a re-analysis of the deposited data

Results flagged for a closer look

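The values of 234 genes (the 8 transcription factor genes, every measured gene of the gene and marker lists, and the other genes examined) and the mean deviations of 22 lists were each checked for 1 liver apart from the others. In 26 of these 256 sets of 5 values, the gap between 1 liver and its nearest neighbour took up more of the range than Dixon's 95% critical value for 5 samples allows. Chance alone does so in about 1 of 20 sets, and 5.65% of all tested genes were past that value. Of the transcription factor genes, Hnf4a was set apart by mouse 3 (ratio of gap to range 0.803). Among related and partner factors, Onecut2 was set apart by a high value of 9.64 in mouse 1 (0.753) and Ppargc1a by a high value in mouse 4 (0.774).

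Among target genes, those set apart by a low value in mouse 5 were Slc10a1 (0.864), Ppara (0.856), Slc27a5 (0.809) and Proc (0.792). Cyp7a1 was set apart by a low value in mouse 2 (0.848) and Nr0b2 by a high value in the same mouse (0.762). Of the acute-phase genes, Saa1 was highest in mouse 1 (0.838) without exceeding the floor in all livers, Socs3 was lowest in mouse 4 (0.761) and Cp was lowest in mouse 1 (0.745). Of the fetal liver and progenitor genes, Igf2 (0.819) and Cd24a (0.738) were highest in mouse 5. The mean deviation of the C/EBP metabolic targets was lowest in mouse 5 (0.794), and that of the other liver-enriched factors highest in mouse 1 (0.743).

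Among marker genes, mouse 1 was highest for Adgre1 (0.741) and Timd4 (0.826) of macrophages, Acta2 (0.858) and Des (0.834) of stellate cells, and Ckm (0.773) and Mb (0.770) of muscle, and for the mean deviation of the skeletal muscle markers (0.711). Cd8a of T cells was lowest in mouse 4 (0.767), Ms4a1 of B cells in mouse 5 (0.735) and Lep of adipocytes in mouse 1 (0.725), and these 3 did not exceed the floor in all livers.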

How the results depend on the processing

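Onecut1 passed the variance test in 5 of 13 alternative settings, with an SD 4.94 to 8.18 times the expected one over all of them and the main setting. It passed with quantile normalization, with arrays centred on their medians, with the mean over the probe sets of a gene, and without mouse 1 or mouse 5. With an SD of 0.82, its adjusted p was 0.0572 with no filter on dim probe sets, 0.0525 with a stricter filter, 0.0933 with no trend on level, 0.177 without the robust step and 0.246 with all probe sets, named or not. In each of these 5 settings 0 of the 8 genes passed (3, 3, 2, 2 and 1 at an unadjusted p under 0.05 in limma). Leaving out 1 mouse at a time gave an SD of 0.54 to 0.91 for Onecut1, and 0 to 1 of the 8 genes passing. The other 7 genes passed in none of the 13 settings, with an adjusted p of at least 0.429.

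Over all probe sets, 52 passed. The count was 142 with arrays centred on their medians, 18 with the stricter filter, 24 with no trend, 18 without the robust step, 0 with all probe sets (1385 at an unadjusted p under 0.05 in limma), and 0 to 71 with 1 mouse left out (0 without mouse 4, 34 without mouse 2 and 30 without mouse 3). The cause of these changes was not tested. All 8 genes also exceeded a floor at the 99th percentile in all livers. Of 100 mean deviations of lists recomputed with a median or with centred arrays, 94 moved by less than the SD of that list's deviations between mice. No paired analysis was possible because the study has 1 group. Signal over background limits Foxa2 most, as it lay nearest to the floor.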

Other observations

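Of the relatives of the factors, 3 had a mean below the floor, whereas Onecut2, Onecut3 and Cebpg were above it in all livers. Hnf4g, the paralogue of Hnf4a best known from gut and kidney, had 4.79 ± 0.28 (SD, n = 5), Prox2 had 5.52 ± 0.04, and Cebpd, an acute-phase member of the C/EBP family, had 5.05 ± 0.23. These genes were picked after the values were seen.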
